A study of Homo sapiens with 3 samples.

Results

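The expression of 10 genes of the hypoxia response was followed across PANC-1 cells under 3 conditions: the HIF α subunits HIF1A and EPAS1, the angiogenic growth factor VEGFA, and 7 other established HIF targets, ANGPTL4, CA9, ADM, NDRG1, EGLN3, BNIP3 and PDK1. They were taken by gene symbol from a table of read counts, 10 of its 51136 genes, and each of the 10 symbols was found once. All 10 had at least 10 counts in a library of each comparison, so that no member was lost to the filter on low counts.

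PANC-1 is an established human pancreatic ductal carcinoma line. The 3 groups were control cells with no agent, cells given 200 μM ginsenoside Rg3 (Rg3, a saponin of ginseng) and cells given 50 μM tamoxifen (TAM, an estrogen receptor modulator that the study uses as a PKC inhibitor), each treatment lasting 24 h. The growth protocol names no lowering of oxygen. The study asked how Rg3 and TAM change the expression of angiogenesis-related genes. Each condition has 1 library, so no difference has a replicate check, no p-value is given, and each 95% interval is exact (Clopper-Pearson for folds and ratios, Poisson for levels) and covers the error of counting alone.

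The hypoxia-inducible factors are transcription factors made of an oxygen-regulated α subunit, HIF-1α (HIF1A) or HIF-2α (EPAS1), and the stable partner ARNT. When oxygen is present, prolyl hydroxylases of the EGLN family mark the α subunit for the VHL ubiquitin ligase and the proteasome. When oxygen is low, the α subunit escapes, enters the nucleus and binds a short core motif near its target genes, among them VEGFA. Much of this control acts on the protein, which RNA-seq does not measure. In pancreatic cancer the pathway is known for its part in angiogenesis and glycolysis.

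The core motif to which HIF binds is ACGTG or GCGTG, and the promoters of the members were searched for it to show where these letters lie. RefSeq promoter windows (GRCh38.p14, 250 bases before to 50 after a transcription start) were used. The search covered 8 of the 10 members, with 10 windows in all. No window of VEGFA or NDRG1 was searched, which does not mean that these genes lack a window or a match. Both strands were searched, and a match on one strand may overlap a match on the other. The motif was present in 7 of the 10 windows, and in 48.4% of all 35116 windows of the same length. A match is a description of the letters and not a measured binding site. The stretches are printed 5′ to 3′ on the strand of the gene, with the motif, or its reverse complement CACGT or CACGC, in capitals.
HIF1A (chr14:61695301-61695321, + strand): tgagagcgGCGTGggctgggg
EPAS1 (chr2:46297282-46297302, + strand): ctgccggcGCGTGcccgccca
ANGPTL4 (chr19:8363913-8363933, + strand): agaagagtCACGTctcccacg
CA9 (chr9:35673902-35673922, + strand): ttccaatgCACGTacagcccg
ADM (chr11:10304964-10304984, + strand): aggagcgcGCGTGgctgagga
BNIP3 (chr10:131982015-131982074, - strand): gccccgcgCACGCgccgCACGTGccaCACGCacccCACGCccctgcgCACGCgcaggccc
PDK1 (chr2:172556065-172556094, + strand): ctgcccgcCACGTccctCACGTaccactcg

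CA9 had a single match close to the start, 18 to 14 bases before it. In PDK1, the second of its 2 windows held a pair of matches between 17 and 4 bases before the start, and the first window held none. BNIP3 had the most, 6 matches between 143 and 100 bases before the start, among them the palindrome CACGTG, which holds ACGTG on each strand. HIF1A, EPAS1, ANGPTL4 and ADM had 1 match each. The window of EGLN3 and the second window of HIF1A held none. ACGTG was in 21.4% of all windows and GCGTG in 36.5%, and some windows held both.

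The libraries held 11300766 (control), 12861693 (Rg3) and 11321442 (TAM) counts over all genes, and levels were scaled with edgeR's TMM factors. The identity of the cells was checked on marker genes. The genes listed as PANC-1 markers were the keratins KRT8, KRT18, KRT19 and KRT7 and the vimentin gene VIM. They had between 93 and 55276 counts in the 3 libraries. The highest count was that of VIM in the control library, where KRT8 had 15329. Of 13 markers of acinar, islet, endothelial, immune and fibroblast cells, 12 had at most 3 counts in any library, and PRSS1, CPA1, CELA3A, INS, GCG, CDH5 and CD3E had 0 in all 3. The exception was the collagen gene COL1A1, with 1853, 1005 and 734 counts in the control, Rg3 and TAM libraries, whose part in the results was not tested.

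Levels are given in CPM, counts per 1000000 of the TMM-scaled library size. To compare levels between genes, CPM values were divided by the length of the longest protein-coding transcript in kilobases. Per kilobase, the control level was highest for ADM, which encodes the vasodilator peptide adrenomedullin, at 96.4. This was above 94.3% of the 14964 genes with a length and at least 10 counts in some library. ANGPTL4 followed at 63.4, the mitophagy receptor BNIP3 at 32.8, the stress-responsive NDRG1 at 22.7, VEGFA at 18.1 and EPAS1 at 14.0 CPM per kilobase. HIF1A stood at 5.64, near the middle of these 14964 genes, with 51.6% of them lower. The scarcest members per kilobase were CA9 at 1.99, PDK1 at 0.687 and EGLN3 at 0.642, above 29.9%, 12.6% and 11.8% of the same genes. The place of PDK1 rests on its annotated length of 14193 bases. In CPM it stood at 9.75, above CA9 at 3.22 and EGLN3 at 1.83.

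The order of the 10 members by level per length was largely shared by the 3 libraries. VEGFA was the fifth in each. ADM led in the control library and ANGPTL4 in both treated ones, at 54.7 against 51.1 for ADM in the Rg3 library and at 265 against 90.7 in the TAM library. HIF1A passed EPAS1 in the Rg3 library, with 13.1 against 12.1 CPM per kilobase. CA9 took the last place there, at 0.687, and PDK1 took it in the TAM library, at 0.644. In CPM, not divided by length, PDK1 in the TAM library stood at 9.14, above EGLN3 at 5.12 and CA9 at 3.62. Some neighbours in this order had overlapping counting intervals. In the control library these were PDK1 and EGLN3 alone. In the Rg3 library ADM overlapped both ANGPTL4 and BNIP3, HIF1A overlapped EPAS1, and EGLN3 overlapped PDK1 and CA9. In the TAM library NDRG1 overlapped BNIP3, and CA9 overlapped HIF1A and EGLN3. ANGPTL4 had the widest span, its highest level being 4.84 times its lowest, and BNIP3 the narrowest, at 1.45 times.

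**Figure D1:**
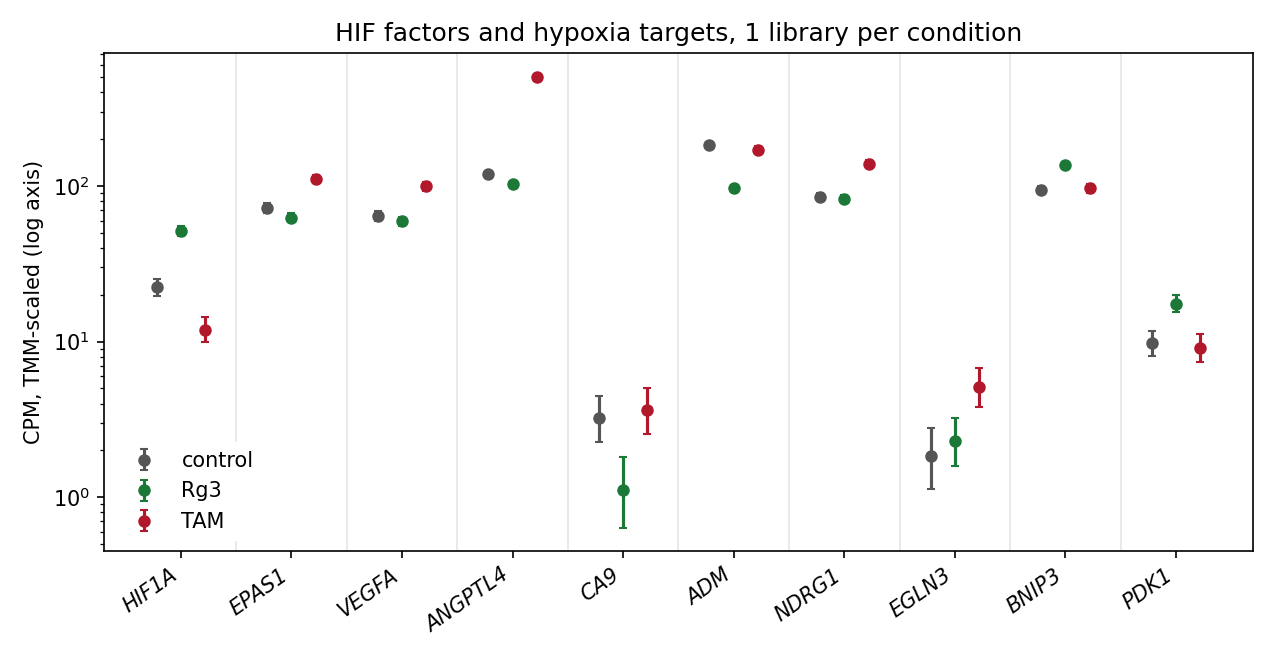
Scaled level of each member in the control (grey), Rg3 (green) and TAM (red) libraries, as TMM-scaled CPM on a log axis, with exact 95% counting intervals. HIF1A stands highest with Rg3 and lowest with TAM, ANGPTL4 reaches 498 with TAM, and CA9 and EGLN3 lie lowest with the widest intervals.

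Fold changes in these libraries followed the base composition of the transcripts. Where a gene reached 50 counts in either library, Spearman's rho between the log2 fold change and GC content was -0.81 across 11978 genes for Rg3 against control and 0.52 across 11393 genes for TAM against control. With transcript length it was 0.21 and -0.48. All points share the same 3 libraries, and genes are not independent replicates. The members span this range, from 36.4% GC in HIF1A to 63.3% in ANGPTL4. Fold changes of the members are therefore given as measured and also after subtraction of a smooth trend on GC content and length. The scaling also sets the direction of small changes: against division by library totals, TMM put every log2 fold change 0.14 lower with Rg3 and 0.21 higher with TAM. The median log2 fold change of all genes compared was 0.04 with Rg3 and -0.02 with TAM.

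In the Rg3 library, HIF1A was 2.32-fold higher than in the control library and PDK1, the kinase that shuts pyruvate out of mitochondrial oxidation, was 1.80-fold higher. CA9, the tumor-associated carbonic anhydrase, stood at 0.345 and ADM at 0.530 of the control level. VEGFA differed little, with a log2 fold change of -0.10 (95% interval -0.25 to 0.04). A gene was called when its fold was over 1.5 or under 0.67, the fold limits of the study. By this rule 2 of the 10 members were called higher and 2 lower, beside 25.0% and 19.5% of the 16487 genes compared, and the members' median log2 fold change was -0.07. After subtraction of the trend, 0 members were called higher and 1, CA9, lower, beside 7.93% and 10.9% of 14800 genes, and their median was 0.15.

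In the TAM library, 5 members were called higher and 1 lower, beside 17.4% and 23.8% of the 16079 genes compared. ANGPTL4 was 4.18-fold higher than in the control library, the prolyl hydroxylase gene EGLN3 2.80-fold, NDRG1 1.63-fold, VEGFA 1.56-fold and EPAS1 1.53-fold. HIF1A stood at 0.536 of the control level. The members' median log2 fold change was 0.39. After subtraction of the trend, 5 members were again called higher and 0 lower, beside 12.1% and 16.3% of 14517 genes, with a median of 0.56. NDRG1 and HIF1A then lost their calls and PDK1 gained one. By library totals, EPAS1 (log2 fold change 0.40), VEGFA (0.43) and NDRG1 (0.50) stayed under the limit, which left 2 members called higher and 1 lower, beside 9.80% and 32.7% of all genes so scaled. With a trend on GC content alone, EPAS1 (0.48), VEGFA (0.57) and NDRG1 (0.38) also stayed under it, which left ANGPTL4 and EGLN3 called higher and 0 members lower, beside 13.6% and 18.9% of genes.

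**Figure D2:**
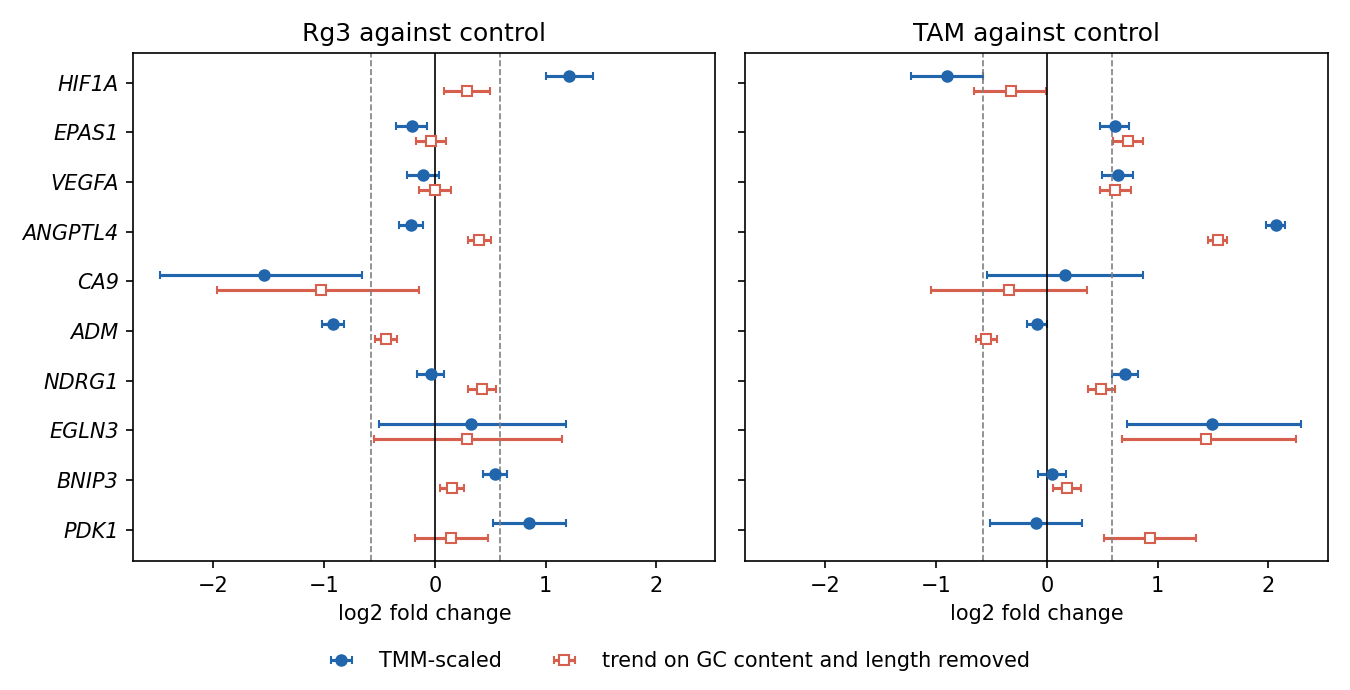
Log2 fold change of each member for Rg3 (left) and TAM (right) against control, with TMM scaling (filled circles) and after subtraction of the GC content and length trend (open squares). Bars are exact 95% counting intervals and dashed lines the fold limits of 1.5 and 0.67. ANGPTL4 and EGLN3 lie past the upper limit with TAM on both scales, and HIF1A moves inside the limits in both panels once the trend is removed.

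The genes of the α subunits differed from each other in both treated libraries. HIF1A had 256 counts in control cells, 744 after Rg3 and 119 after TAM, or 22.3, 51.7 and 12.0 CPM. The counting intervals of the 3 levels were apart from each other. Its log2 fold change was 1.21 with Rg3 (95% interval 1.01 to 1.42) and -0.90 with TAM (-1.23 to -0.58), and it was the only one of the 10 members called in opposite directions. Its transcript has the lowest GC content of the members, 36.4%, and with the trend removed the changes were 0.29 and -0.33, both inside the fold limits. In the Rg3 library, 95.2% of genes compared had a smaller log2 fold change than HIF1A.

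EPAS1 had 829, 899 and 1098 counts in the control, Rg3 and TAM libraries, or 72.2, 62.4 and 110 CPM. The TAM library was highest and the Rg3 library lowest. The log2 fold change was -0.21 with Rg3 (-0.35 to -0.07) and 0.61 with TAM (0.48 to 0.74), and with the trend removed it was -0.03 and 0.73. The lower bound of the TAM interval lay under the limit of 1.5-fold, and the TAM call was lost by library totals (0.40) and with the trend on GC content alone (0.48).

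The ratio of both α subunit genes within a library needs no scaling between libraries. HIF1A had 0.309 counts for each count of EPAS1 in control cells (95% interval 0.267 to 0.356), 0.828 after Rg3 (0.750 to 0.913) and 0.108 after TAM (0.0889 to 0.131). The 3 intervals did not overlap. Per length, HIF1A made up 28.7% of the summed level of both genes in control cells, 51.9% after Rg3 and 12.4% after TAM. In log2 the ratio differed from the control by 1.42 with Rg3 and by -1.51 with TAM. With each gene's trend removed, these differences were 0.32 and -1.06.

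**Figure D3:**
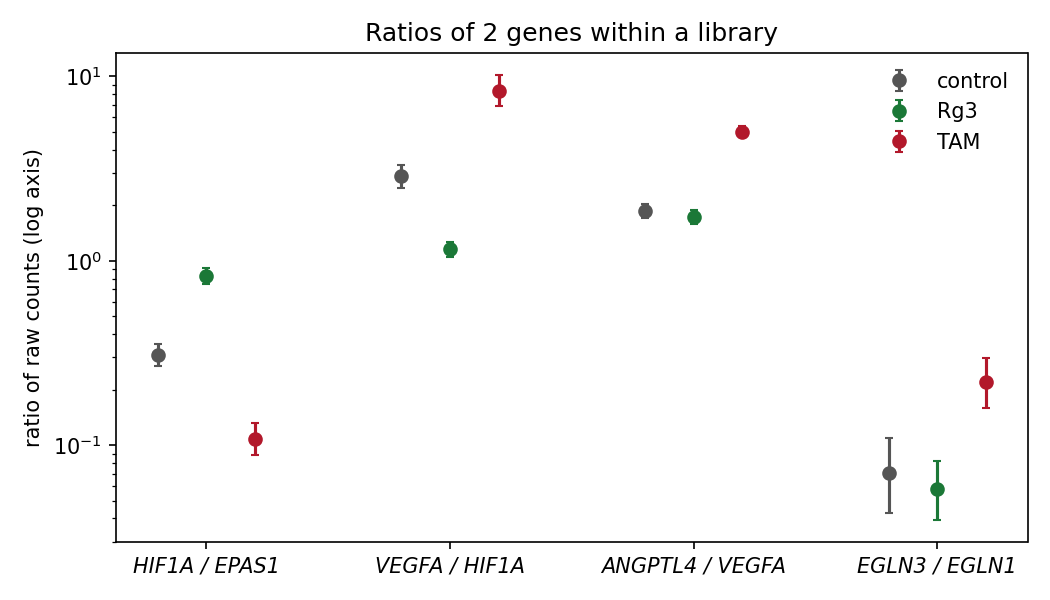
Ratios of raw counts of a pair of genes within the control (grey), Rg3 (green) and TAM (red) libraries on a log axis, with exact 95% counting intervals. HIF1A to EPAS1 is highest with Rg3, at 0.828, and lowest with TAM, at 0.108. The other 3 ratios are highest with TAM.

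EGLN3, a HIF target whose product hydroxylates HIF α subunits in turn, was the scarcest member per length in the control library. It had 21, 33 and 51 counts in the control, Rg3 and TAM libraries, or 1.83, 2.29 and 5.12 CPM. The intervals of the control and Rg3 levels overlapped, and that of the TAM level lay above both. The log2 fold change was 0.33 with Rg3 (-0.51 to 1.19) and 1.49 with TAM (0.73 to 2.29). With TAM, 98.1% of genes compared had a smaller fold change. Removal of the trend left 0.29 with Rg3 and 1.44 with TAM. Against EGLN1, the main HIF prolyl hydroxylase, EGLN3 had 0.0705 counts for each EGLN1 count in control cells, 0.0578 after Rg3 and 0.219 after TAM. In log2 this ratio differed from the control by -0.29 with Rg3 and 1.64 with TAM, and by 0.12 and 0.94 without the trend of each gene.

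VEGFA, ANGPTL4 and ADM encode secreted proteins that act on vessels. VEGFA, the main growth factor of endothelial cells, had 734, 857 and 991 counts in the control, Rg3 and TAM libraries, or 63.9, 59.5 and 99.6 CPM. The control and Rg3 levels had overlapping intervals, and the TAM level was above both. Its log2 fold change with TAM was 0.64 (0.50 to 0.78), and 0.62 with the trend removed. The lower bound of this interval lay under the limit of 1.5-fold. VEGFA lost its call by library totals (0.43) and with the trend on GC content alone (0.57). With a trend from the longest transcript of any kind, an alternative chosen after seeing the data, the change was 1.08. With Rg3 the change was -0.10 as measured and 0.0028 with the trend removed. VEGFA had 2.87 counts for each count of HIF1A in control cells, 1.15 after Rg3 and 8.33 after TAM. The log2 differences of this ratio from the control, -1.32 with Rg3 and 1.54 with TAM, became -0.29 and 0.95 when each gene's trend was removed.

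ANGPTL4, a secreted inhibitor of lipoprotein lipase that also acts on vessels, had 1367, 1480 and 4954 counts, or 119, 103 and 498 CPM. The TAM library stood far above the other two. The log2 fold change with TAM was 2.06 (1.98 to 2.15), larger than in 99.2% of genes compared, and 1.54 with the trend removed. With Rg3 it was -0.21 (-0.32 to -0.10) as measured and 0.40 with the trend removed, so that its sign depended on the trend, while both values were inside the fold limits. For each VEGFA count there were 1.86 ANGPTL4 counts in control cells, 1.73 after Rg3 and 5.00 after TAM. In log2 this ratio differed from the control by -0.11 and 1.42, and by 0.40 and 0.92 after subtraction of the trends.

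ADM had 2090, 1389 and 1705 counts, or 182, 96.5 and 171 CPM. The Rg3 library was lowest, and the intervals of the control and TAM levels overlapped. The log2 fold change was -0.92 with Rg3 (-1.02 to -0.82) and -0.09 with TAM (-0.18 to 0.01). ADM has 58.5% GC, and with the trend removed the changes were -0.44 and -0.55, neither past a limit.

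CA9 and PDK1 adjust acidity and fuel use in hypoxic cells. CA9, a membrane enzyme that helps to export acid and is often read as a marker of HIF-1 activity, had 37, 16 and 36 counts, or 3.22, 1.11 and 3.62 CPM. The control and TAM levels were close, and the Rg3 interval, 0.635 to 1.80, lay below both others. The log2 fold change with Rg3 was -1.54 (-2.48 to -0.65), and 2.19% of genes compared had a smaller one. It was -1.02 (-1.97 to -0.14) with the trend removed, which kept CA9 called but with an interval that reached inside the limit. With TAM it was 0.17 (-0.54 to 0.87) as measured and -0.34 without the trend, so that its sign depended on the trend, and neither value was called. Exons of ARHGEF39 overlap CA9 on the opposite strand, with 370, 334 and 533 counts, and the use of strand in counting is not given in the sources used here.

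PDK1 had 112, 253 and 91 counts, or 9.75, 17.6 and 9.14 CPM. The Rg3 library was highest and the other two had overlapping intervals. Its log2 fold change was 0.85 with Rg3 (0.52 to 1.18) and -0.09 with TAM (-0.51 to 0.32). Its annotated transcript is the longest of the members, 14193 bases, with 39.8% GC. After subtraction of the GC content and length trend, the values were 0.15 with Rg3 and 0.93 for TAM, and by a trend on GC content alone 0.12 and 0.42, so that the TAM call rested on the term for length.

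BNIP3 and NDRG1 respond to hypoxic stress. BNIP3, which tags mitochondria for autophagy, had 1077, 1963 and 963 counts, or 93.8, 136 and 96.8 CPM. The Rg3 library was highest, and the control and TAM levels had overlapping intervals. BNIP3 was the only member called in neither comparison, with log2 fold changes of 0.54 (0.43 to 0.65) and 0.04 (-0.08 to 0.17). With library totals, its change with Rg3 was 0.68 and past the limit. Without the trend the changes were 0.15 with Rg3 and 0.18 with TAM. Of its stretches of 50 bases, 19.0% recur in another gene, mainly the pseudogene BNIP3P1, which had 295, 564 and 252 counts, so that BNIP3 counts are uncertain. The paralog BNIP3L had 315, 538 and 187 counts.

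NDRG1 had 979, 1196 and 1384 counts, or 85.3, 83.1 and 139 CPM. The TAM level was highest, and the intervals of the control and Rg3 levels overlapped. The log2 fold change was -0.04 with Rg3 (-0.16 to 0.09) and 0.71 with TAM (0.59 to 0.83). With the trend removed it was 0.43 and 0.49, of 1 sign in both libraries and inside the limits.

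The members' folds with Rg3 lined up with GC content. The 4 members with the lowest GC content, HIF1A (36.4%), PDK1 (39.8%), BNIP3 (44.8%) and EGLN3 (49.4%), had the 4 highest log2 fold changes with Rg3, in that order. CA9 and ADM, the lowest with Rg3, have 60.1% and 58.5% GC, while NDRG1 and ANGPTL4, of 58.0% and 63.3%, stood 0.43 and 0.40 above the trend on the log2 scale. With TAM, HIF1A had the lowest GC content and the lowest fold change, and ANGPTL4 the highest of both. EGLN3, with 49.4% GC, lay 1.44 above the trend. The part of base composition in these differences was not tested beyond the values with the trend removed.

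**Figure D4:**
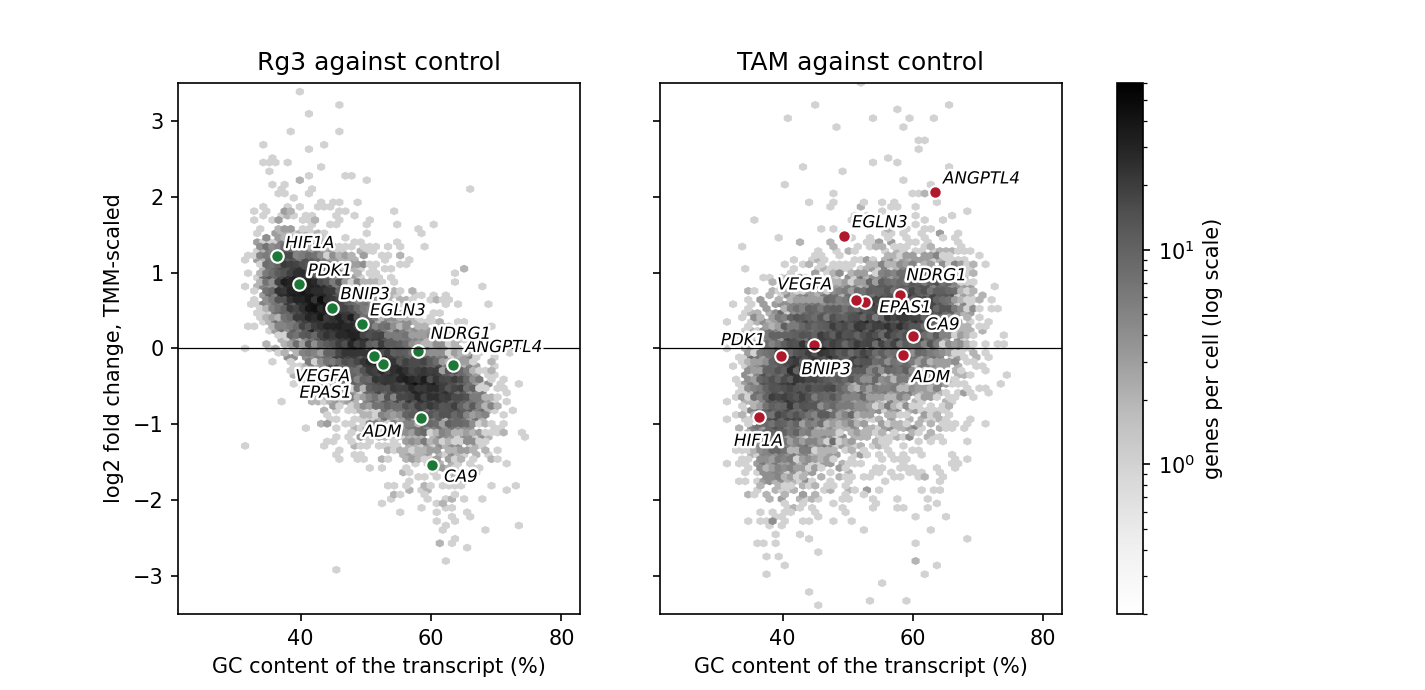
Log2 fold change (TMM-scaled) against GC content of the transcript for genes that reach 50 counts in either library (grey cells, darker with more genes), with the 10 members as points. Rg3 against control is on the left and TAM against control on the right, with 5 and 9 genes beyond the axis not shown. The fold change declines with GC content with Rg3 (rho -0.81) and climbs with it with TAM (rho 0.52), and ANGPTL4 and EGLN3 stand at the upper edge of the cloud with TAM.

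The TAM and Rg3 libraries share no dose, so their direct comparison sets 50 μM against 200 μM, and it uses the same libraries as the other 2 comparisons. In it, 7 members were higher in the TAM library and 2 were lower, HIF1A and PDK1, beside 30.0% and 35.4% of 16493 genes. The log2 difference was 2.28 for ANGPTL4, 1.70 for CA9, 1.16 for EGLN3 and -2.11 for HIF1A. With the trend removed these were 1.14, 0.68, 1.17 and -0.60, and PDK1 turned from -0.94 to 0.84.

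The machinery that controls HIF was described by 18 genes, of which 15 were compared. With Rg3, 4 were called higher and 2 lower, or 26.7% and 13.3% beside 25.0% and 19.5% of all genes, with a median log2 fold change of 0.02. With TAM, 1 was called higher and 4 lower, or 6.67% and 26.7% beside 17.4% and 23.8%, with a median of 0.06. ARNT, the partner of both α subunits, had 512, 598 and 317 counts and was not called, with -0.10 and -0.49. VHL (743, 947 and 577 counts) and HIF1AN, the asparaginyl hydroxylase that blocks HIF transactivation (1070, 1357 and 1172 counts), were not called either. No count was listed for HIF3A in any library. HIF1A-AS1, an antisense RNA over exons of HIF1A, also had 0 counts in each.

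The hydroxylase genes differed from each other. EGLN1 had 298, 571 and 233 counts, with log2 fold changes of 0.61 with Rg3 and -0.15 with TAM. EGLN2 had 432, 349 and 667 counts, with -0.63 and 0.83. EGLN1 has 44.1% GC and EGLN2 63.0%, and with the trend removed EGLN1 stood at 0.17 and 0.50 and EGLN2 at -0.02 and 0.41, none of them called.

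In the VHL ligase, the scaffold CUL2 had 199, 530 and 109 counts, with 1.09 with Rg3 and -0.66 with TAM, and the elongin genes TCEB1 (0.62) and TCEB2 (-0.64) were called in opposite directions with Rg3. The coactivators of HIF, EP300 and CREBBP, were lower in the TAM library, by -1.14 and -0.74, as was the ARNT homolog ARNT2, with 21 counts in the control library and 7 with TAM. Once the trend was subtracted, EP300 (-0.68) and ARNT2 (-1.08) kept their calls with TAM, CUL2 (-0.10) and CREBBP (-0.36) did not, and HIF1AN (1.13) and SIAH1 (0.79), a ubiquitin ligase gene, gained one. TCEB1, at 0.59, was then the only regulator called with Rg3. The regulators so called higher and lower were 13.3% and 13.3% with TAM, beside 12.1% and 16.3% of genes. With Rg3 they were 6.67% and 0%, beside 7.93% and 10.9%.

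Among 35 other hypoxia targets outside glycolysis, 33 were compared with Rg3, and 11 were called higher and 5 lower, with a median of 0.28. These were 33.3% and 15.2%, beside 25.0% and 19.5% of all genes. Among the enzymes that modify collagen, P4HA1 (434, 1177 and 309 counts) stood at 1.11 and PLOD2 (854, 2409 and 628 counts) at 1.17 with Rg3, and PLOD1 at -0.82 and LOXL2 at -0.83. Without the trend they stood at 0.45, 0.31, -0.34 and -0.36, and none was called. TFRC, the transferrin receptor, had 1899, 6212 and 1312 counts, with 1.38 with Rg3. The placental growth factor gene PGF (258, 131 and 358 counts) and HILPDA, a lipid droplet protein gene (356, 263 and 535 counts), were lower with Rg3, at -1.30 and -0.76. Once the trend was subtracted, 3 were called higher, BHLHE41 (1.26), TFRC (0.75) and RORA (1 count in the control library and 12 with Rg3), and 2 lower, PGF (-0.66) and HILPDA (-0.70), or 9.09% and 6.06% beside 7.93% and 10.9% of genes.

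With TAM, 32 of these targets were compared, and 10 were called higher and 1 lower, with a median of 0.17. These were 31.2% and 3.12%, beside 17.4% and 23.8% of all genes. By library totals 9 were called higher and 5 lower, with a median of -0.03. These were 28.1% and 15.6%, beside 9.80% and 32.7% of all genes so scaled, whose median was -0.23. The stanniocalcin genes STC2 (3304, 3203 and 7351 counts) and STC1 (119, 189 and 221 counts) stood at 1.36 and 1.10. DDIT4, an inhibitor of mTORC1, had 1144, 994 and 2468 counts, with 1.32, and JMJD6 had 519, 694 and 913, with 1.02. CA12, a carbonic anhydrase of the same membrane class as CA9, had 18, 17 and 38 counts, with 1.28. KLF10 was lower, at -0.90. Without the trend, 8 were called higher, these 5 with ANKRD37, PPP1R3C and FUT11, and KLF10 (-0.74) remained the 1 called lower. The shares were then 25% and 3.12%, beside 12.1% and 16.3% of genes.

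The 20 glycolytic hypoxia targets were all compared, and their median was -0.36 with Rg3 and 0.49 with TAM. With Rg3, 1 was called higher and 5 lower, the enzymes GPI (-0.66), PFKL (-0.88), PFKP (-0.64), ENO1 (-0.63) and PKM (-0.68), or 5% and 25% beside 25.0% and 19.5% of all genes. By library totals 2 were called higher and 1 lower with Rg3, beside 31.4% and 14.1% of genes. With TAM, 6 were called higher and 0 lower, or 30% and 0% beside 17.4% and 23.8%. With TAM 19 of the 20 had a log2 fold change above 0, beside 7827 of all 16079 genes. By library totals this was 16, beside 5877 of 16079, and without the trend it was 15, beside 7157 of 14517. PKM, the pyruvate kinase gene, had 51981, 40676 and 94185 counts, with 1.06 with TAM. ALDOC, an aldolase gene, was higher in both treated libraries, with 153, 435 and 386 counts and log2 fold changes of 1.18 with Rg3 and 1.54 with TAM. Without the trend ALDOC stood at 1.59 and 1.13. The glycolytic median with the trend removed was -0.05 with Rg3, with 2 called higher and 0 lower. These were 10% and 0%, beside 7.93% and 10.9% of genes. With TAM it was 0.30, with 5 called higher and 0 lower, or 25% and 0% beside 12.1% and 16.3%. PGK1 (0.99) and LDHA (0.60), of 43.3% and 44.0% GC, were then among the 5, and ALDOA, TPI1 and ENO2 were not.

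**Figure D5:**
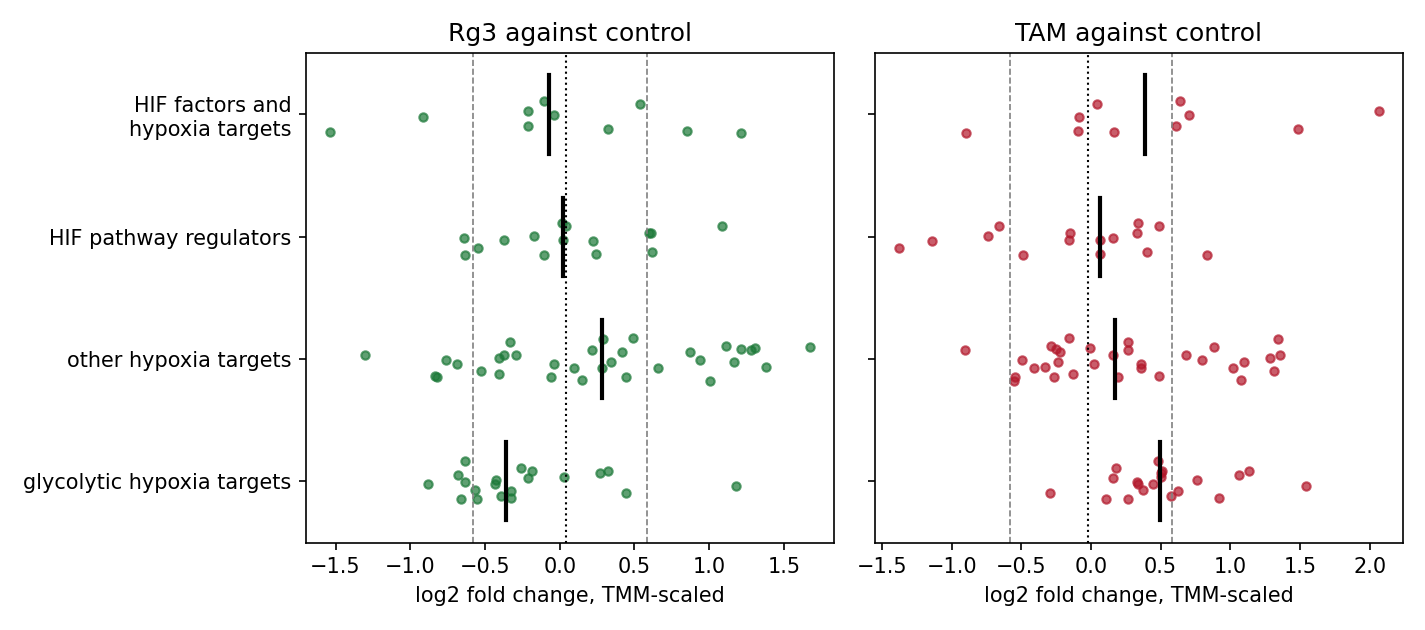
Log2 fold change (TMM-scaled) of each gene compared in the 10 members and 3 lists of the pathway, for Rg3 (left) and TAM (right) against control. Black bars are list medians, the dotted line is the median of all genes and dashed lines are the fold limits of 1.5 and 0.67. The glycolytic median lies at -0.36 with Rg3 and at 0.49 with TAM, and the members range from -1.54 to 1.21 with Rg3 and from -0.90 to 2.06 with TAM.

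The genes with the pattern most like each of 3 members were sought among 8425 genes with at least 100 counts in every library, by the Euclidean distance over both log2 fold changes against control. With 3 libraries this likeness is coarse. For VEGFA the nearest were SIL1, TMA7 and ATP6V0D1, at distances of 0.0082, 0.0086 and 0.0090. For HIF1A they were CGGBP1 (0.041), ZNF644 (0.070) and TTK (0.083). ANGPTL4 had no close neighbour: PRSS3 (119, 105 and 473 counts) was nearest at 0.32, before C10orf10 at 0.40 and MAGEA3 at 0.44. Within a fixed limit shorter than the distance of PRSS3 from ANGPTL4, 591 genes lay near VEGFA, 33 near HIF1A and 0 near ANGPTL4. The genes named for VEGFA are thus 3 of many.

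The members lie on 8 chromosomes (GRCh38, GENCODE 29). VEGFA is at chr6:43770184-43786487, HIF1A at chr14:61695513-61748259, EPAS1 at chr2:46293667-46386703 and ANGPTL4 at chr19:8363289-8374373, all on the + strand. EPAS1, ADM, NDRG1, EGLN3 and BNIP3 share no exon with another annotated gene. Exons of HIF1A overlap AL137129.1 on the same strand and HIF1A-AS1 on the opposite strand. Of the 50-base stretches of HIF1A, 2.61% recur in another gene, mainly AL137129.1, so that reads of these stretches cannot be told apart. The symbol AL137129.1 was not among the genes counted. Exons of ANGPTL4 overlap RAB11B-AS1 on the opposite strand, which had 21, 11 and 16 counts. VEGFA and PDK1 overlap antisense transcripts, AL136131.3 and AC078883.1, whose symbols were not among the genes counted either.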

How the data were processed

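PANC-1 libraries from control, Rg3 and TAM cells, 1 each, were sequenced from total RNA on an Ion Proton. The authors checked reads with FAST-QC, aligned them with TopHat and deposited raw counts per gene symbol, without normalization. The submitters' processing notes name GRCh38. The counting tool, the annotation and the use of strand are not given in the sources used here, so reads of overlapping antisense genes may be shared. Groups came from the sample labels. The Limma criteria of the study need replicates, so that only its fold limits were applied.

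From the deposited counts, TMM factors were computed with edgeR 4.0.16 (R 4.3.3), 1.02 (control), 1.12 (Rg3) and 0.879 (TAM). A gene was compared where either library held 10 counts or more (Python 3.11.15), and counts under 3 were raised to 3. Intervals of folds and ratios are exact Clopper-Pearson ones (scipy 1.17.1), and those of single levels exact Poisson ones. The trend was a loess fit (span 0.3) on GC content and log2 length of the longest protein-coding GENCODE 29 transcript, fitted to genes with at least 50 counts. GC content and length were found for 89.8% of genes compared for Rg3, 90.3% for TAM and all 10 members. The steps were tested on simulated counts with a trend on GC content but none on length, so that removal of a length trend was not tested.

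The members and the lists (HIF regulators, other hypoxia targets, glycolytic targets, PPAR targets, cell markers) were chosen with earlier results of these data known. Named genes were all members, list genes called in either comparison or with the 3 largest or smallest folds, the 3 nearest genes of VEGFA, HIF1A and ANGPTL4, and genes sharing exons with a member. Some of these are summarised by number, and list genes given as not called were named after their values were seen. Elongin genes and ERO1A were matched under their older symbols. Alternatives were library totals, size factors from DESeq2 1.42.0, other count and fold limits, intervals wholly past the limit, and trends on GC content alone or on another transcript.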

Additional observations from a re-analysis of the deposited data

How the results depend on the processing

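No paired analysis was possible because the labels number no replicates and a group is 1 library, and for the same reason no replicate could be left out. Size factors from DESeq2 and a minimum of 1 count changed no call of a member in the 3 comparisons. For Rg3 against control, 1 member was called lower with a minimum of 50 counts, 1 higher and 1 lower with a 2-fold limit, and 1 higher when the whole interval had to pass the limit. Removing the GC content and length trend, 0 were higher and 1 lower (median log2 fold change 0.15), beside 7.93% and 10.9% of genes. With GC content alone these were 0 and 1 (median 0.14), beside 8.03% and 10.7%. With the longest transcript of any kind, an alternative chosen after seeing the data, they were 1 and 1 (median 0.16). BNIP3 was the 1 called higher, and of all genes 8.13% were higher and 11.1% lower. For TAM against control, library totals left 2 higher (median 0.18), beside 9.80% of all genes. A minimum of 50 counts moved the median to 0.61. A 2-fold limit left 2 higher and 0 lower, beside 5.36% and 11.3% of all genes. The whole interval past the limit left 3 higher, beside 6.73%. Without the GC content and length trend 0 were lower (median 0.56), beside 16.3% of genes. Without that on GC content 2 were higher and 0 lower, beside 13.6% and 18.9%. With the longest transcript of any kind 6 were higher and 0 lower (median 0.66), beside 12.5% and 16.7%. For TAM against Rg3, library totals left 3 higher (median 0.43), beside 18.8% of all genes. A 2-fold limit left 3 higher and 1 lower, beside 16.9% and 24.2%. The GC content and length trend, once removed, left 1 lower, beside 18.1%. The GC content trend, once removed, left 3 higher and 1 lower (median 0.41), beside 19.9% and 20.7%. Called values that changed sign were all in TAM against Rg3: ADM to -0.10 and, with the longest transcript of any kind, -0.11, NDRG1 to -0.043 with GC content alone, and PDK1 to 0.84, 0.32 with GC content alone and 0.72 with the longest transcript of any kind. Among values not called, library totals turned the signs of VEGFA (0.04) and NDRG1 (0.10) with Rg3 and of CA9 (-0.04) and BNIP3 (-0.16) with TAM. Depth limits CA9 and EGLN3 most, with at most 37 and 51 counts in a library.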

Other observations

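ANGPTL4, the member with the largest difference in the TAM library, is also a target of the PPAR nuclear receptors, which switch on genes of fatty acid use. Of 15 other PPAR targets, 10 were compared, and with TAM 2 were called higher and 3 lower, or 20% and 30% beside 17.4% and 23.8% of all genes. Their median log2 fold change with TAM was -0.32 beside -0.02 over all genes, -0.15 with the trend removed, and 0.07 with a trend from the longest transcript of any kind, an alternative chosen after seeing the data, so that its sign depended on the trend. ACSL1, which activates fatty acids, had 111 control counts and 24 with TAM (-2.003). PDK4, a pyruvate dehydrogenase kinase like PDK1, had 27 and 5 counts (-2.23), and CPT1A, the gate of fatty acid entry into mitochondria, had 2218 and 1259 (-0.61). ACADVL (0.81) and the carnitine carrier gene SLC25A20 (0.62) were higher. With the trend removed, ACSL1 (-1.69) and PDK4 (-1.79) kept their calls and the other 3 did not. The shares called higher and lower were then 0% and 20%, beside 12.1% and 16.3% of genes. With Rg3, 0 of the 10 were called higher and 1, ACADVL (-0.73), lower, or 0% and 10% beside 25.0% and 19.5% of all genes. CYP4A11 and FABP4 had 0 counts in each library.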
